A study of Mus musculus with 6 samples.

Results

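The insulin-like growth factor (IGF) axis was followed in the mouse testis through 10 genes, matched by symbol among 32285 measured features. They were the ligands Igf1 and Igf2, the receptors Igf1r and Igf2r, and the binding protein genes Igfbp2, Igfbp3, Igfbp4, Igfbp5, Igfbp6 and Igfbp7. All 10 were present in the files. The set was chosen with values of these libraries in view, among them the cell types of each gene and Igfbp3 in stromal and myoid cells of control and nicotine-exposed mice. Those values are therefore given as a description, with no test.

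Male C57BL/6J mice, an inbred strain, drank plain water (control) or water with 200 µg/mL nicotine (nicotine) for 8 weeks from 3 weeks of age, and testes were taken at 11 weeks. Each group had 3 mice and each mouse gave 1 library of the 10x 3' type, so the mouse was the replicate throughout. No transgene, deletion or other agent was named for either group. Libraries held 67853893 to 88329607 unique molecular identifiers (UMIs, 1 per captured transcript), and 9848 to 11008 cells per mouse were kept, 61945 in all. Across libraries, 478 of 61465 distinct barcodes occurred more than 1 time.

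IGF-1 and IGF-2 are small secreted peptides that act mainly through the IGF-1 receptor, a tyrosine kinase that signals through IRS docking proteins to PI3K and AKT. The product of Igf2r takes IGF-2 into the cell for degradation, and the binding proteins hold the ligands outside the cell and set how much reaches a receptor. In the testis the axis is known for its part in Sertoli cell number, in Leydig cell steroid production and in germ cell support.

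Cells were grouped into classes from clusters, with the 10 genes and their pathway left out of the genes used for clustering. The somatic classes were stromal-like (558 cells), Leydig-like (382), macrophage-like (175) and Sertoli-like (4432). The stromal-like class joined a cluster of 311 cells led by Dcn, Gsn and Fos (the Dcn cluster) and a cluster of 247 cells led by Cyp26b1, Fhl2 and Adamts5 (the Cyp26b1 cluster). Nicotine replicate 1 had 2 macrophage-like cells and was left out of levels in that class. No cluster earned the name myoid-like, endothelial-like or spermatogonium-like. The contractile genes that define peritubular myoid cells were nearly absent: in stromal-like cells Acta2 stood at 6.56 CPM, Myh11 at 5.62 CPM and Tagln at 12.2 CPM, and 2 of 558 cells had at least 3 UMIs over Acta2, Myh11, Tagln, Cnn1 and Des. Of these contractile genes Des was the highest, at 37.5 CPM in stromal-like cells. Other genes of the marker list for myoid cells went the other way, with Cyp26b1 at 1180 CPM and Fhl2 at 878 CPM there. Over all kept cells Cyp26b1, Fhl2 and Des stood at 3.41, 3.28 and 0.153 CPM. CPM is the number of UMIs of a gene per 1000000 UMIs, summed over the cells of a class in a mouse. CPM values given without an SD are over all cells of a class or cluster pooled.

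In 9 of the 10 genes the highest mean level among the named classes lay in stromal-like cells, and Igfbp2 was highest in Leydig-like cells. Macrophage-like cells were second for Igf1 and Igfbp4, and Leydig-like cells were second for Igf2, Igf1r, Igf2r, Igfbp6 and Igfbp7. Sertoli-like cells, at a median of 958 UMIs per cell, held Igfbp7 at 28.0 ± 9.16 CPM (SD, n = 6 mice) and each of the other members at under 5 CPM in the mean. Markers of elongating spermatids took 2.24% of the UMIs of these cells, those of late spermatocytes 1.05% and those of Sertoli cells 0.795%. The part of germ cell RNA in the low Sertoli-like levels was not tested. Levels of different genes are not ranked against each other here.

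**Figure D1:**
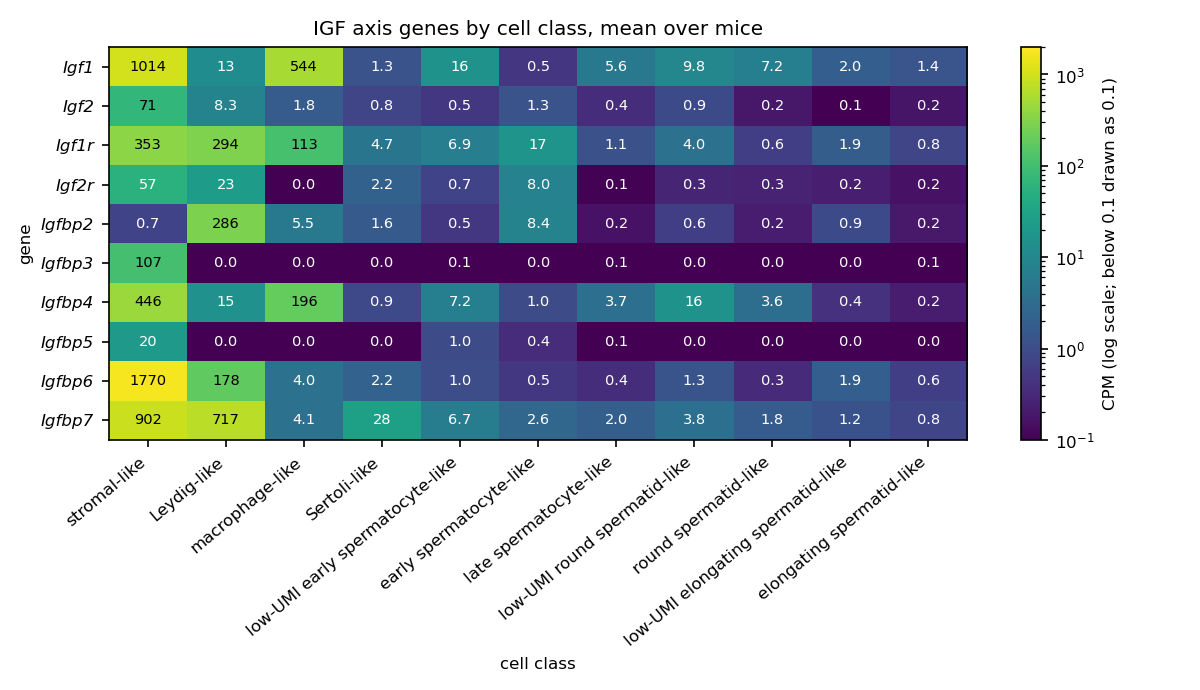
Mean CPM over mice (colour, log scale; number in each field) of the 10 IGF axis genes (rows) in 11 cell classes (columns), over 6 mice, or 5 for macrophage-like cells. The stromal-like column holds the highest value of every gene but Igfbp2, which is highest in Leydig-like cells.

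Igf1, which encodes the ligand IGF-1, had a level of 1014 ± 167 CPM in stromal-like cells (SD, n = 6) and 544 ± 85.8 CPM in macrophage-like cells (SD, n = 5). The stromal-like level was the higher in 5 of 5 mice. A UMI of Igf1 was found in 347 of 558 stromal-like cells (62.2%) and in 106 of 175 macrophage-like cells (60.6%). After thinning each cell to 1000 UMIs, with shallower cells left out, the shares were 51.1% and 39.3%, beside 0.113% in early spermatocyte-like cells. Leydig-like cells, deeper at a median of 6894 UMIs, stood at 12.5 ± 9.26 CPM, and 1 of 6 mice had none there.

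The stromal-like level of Igf1 was 1138, 913 and 833 CPM in control replicates 1, 2 and 3, and 1135, 1214 and 852 CPM in nicotine replicates 1, 2 and 3. The groups overlapped over most of their range. The log2 difference, nicotine minus control, was 0.16 (SE 0.20; edgeR quasi-likelihood test, Benjamini-Hochberg adjusted p = 0.897). In macrophage-like cells, fitted with the 3 control mice against nicotine replicates 2 and 3, the log2 difference was -0.11 (SE 0.31, edgeR adjusted p = 0.997).

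Germ cells held a large part of the Igf1 UMIs of the testis at a low level per cell. Round spermatid-like cells carried 33.0% of all Igf1 UMIs, against 31.3% in stromal-like cells, at 7.22 ± 0.743 CPM with a range of 6.11 to 8.27 CPM over the 6 mice. Among their cells, at a median of 15284 UMIs, 10.1% had a UMI of Igf1, and 0.655% after thinning. Within them, a cluster of 2030 cells reached 11.4 ± 0.983 CPM. Low-UMI early spermatocyte-like cells had 16.1 ± 3.07 CPM, whereas early spermatocyte-like cells had 0.484 ± 0.496 CPM. Dcn, a stromal transcript, stood at 6330 CPM in stromal-like cells. It was at 0.498 CPM in round spermatid-like, 3.32 CPM in low-UMI early spermatocyte-like and 1.07 CPM in early spermatocyte-like cells. The part of stromal RNA outside stromal cells in the germ cell values of Igf1 was not tested.

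Igf1os, an antisense gene on the other strand of the Igf1 locus, was highest in low-UMI early spermatocyte-like cells at 14.4 CPM and stood at 2.09 CPM in round spermatid-like cells. No source used here gives the strand setting of the counting, so reads of Igf1 and Igf1os may not be fully separate. In late spermatocyte-like cells Igf1 was 3.09, 5.20 and 5.69 CPM in control and 7.03, 7.12 and 5.30 CPM in nicotine mice. The groups overlapped there, and the log2 difference of 0.52 (SE 0.21) had an edgeR adjusted p of 0.181.

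Igf2, the gene of the fetal growth ligand IGF-2, was at 70.6 ± 22.2 CPM in stromal-like cells and 8.32 ± 6.16 CPM in Leydig-like cells (SD, n = 6 for both), and stromal-like cells were higher in 6 of 6 mice. Only 240 UMIs of Igf2 were counted in all kept cells, 31.7% of them in stromal-like cells. Stromal-like CPM was 84.4, 52.5 and 61.8 in control and 40.9, 86.8 and 97.4 in nicotine mice. Nicotine replicate 1, with 4 UMIs, was the lowest of the 6 mice and the other two nicotine mice were the highest, so the groups overlapped (log2 difference 0.21, SE 0.37, edgeR adjusted p = 0.916).

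Igf1r encodes the receptor through which both ligands signal. Its level was 353 ± 41.0 CPM in stromal-like and 294 ± 58.6 CPM in Leydig-like cells (SD, n = 6), with the stromal-like value higher in 5 of 6 mice; the SDs of these neighbours overlap. Macrophage-like cells followed at 113 ± 31.0 CPM (n = 5) and early spermatocyte-like cells at 17.1 ± 3.63 CPM. The raw share of cells with a UMI was 73.3% in the deep Leydig-like and 40.1% in the shallow stromal-like cells, but after thinning it was 25.5% and 29.0%, beside 0.0999% in round spermatid-like cells.

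In stromal-like cells Igf1r was 373, 328 and 407 CPM in control and 379, 341 and 292 CPM in nicotine mice. In Leydig-like cells it was 240, 287 and 374 CPM in control and 260, 358 and 244 CPM in nicotine mice. Both sets overlapped between the groups, with log2 differences of -0.16 (SE 0.22, edgeR adjusted p = 0.897) and -0.08 (SE 0.18, edgeR adjusted p = 0.998).

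Igf2r, which encodes the clearance receptor for IGF-2, was at 56.5 ± 10.7 CPM in stromal-like, 22.7 ± 7.81 CPM in Leydig-like and 8.03 ± 1.77 CPM in early spermatocyte-like cells (SD, n = 6). This order of the first 3 classes held in 6 of 6 mice. No UMI was found in 175 macrophage-like cells, which allows a level of up to 6.87 CPM and a share of up to 1.71% of cells with a UMI, for counting error only. The 2673 early spermatocyte-like cells held 46.8% of all Igf2r UMIs.

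Igf2r passed the filter on low counts in 1 class, the early spermatocyte-like cells. It was 8.05, 9.05 and 11.0 CPM there in control and 7.08, 6.49 and 6.49 CPM in nicotine mice. All nicotine mice lay below all control mice; the groups did not overlap in 16.9% of the genes tested in this class, either direction counted. The log2 difference was -0.52 (SE 0.22) and did not pass the test (edgeR adjusted p = 0.341). Airn, the antisense transcript that overlaps Igf2r, was at 5.57 CPM in these cells but at 166 CPM in stromal-like and 169 CPM in low-UMI early spermatocyte-like cells.

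The same germ class held Igf1r, Igf2r and Igfbp2 together. In its cluster of 1159 cells led by Dazl, Tex101 and Sycp1, Igf2r reached 12.3 ± 1.57 CPM and Igfbp2 13.6 ± 4.83 CPM (SD, n = 6). Dazl encodes a germ cell RNA-binding protein and Sycp1 a protein of the synaptonemal complex. Igf1r in early spermatocyte-like cells had a log2 difference of 0.15 (SE 0.19, edgeR adjusted p = 0.822) and Igfbp2 one of 0.16 (SE 0.25, edgeR adjusted p = 0.869).

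Igfbp2, the gene of a binding protein with a preference for IGF-2, was at 286 ± 38.2 CPM in Leydig-like cells (SD, n = 6), which held 69.4% of its UMIs. Among 558 stromal-like cells 1 UMI was found, and early spermatocyte-like cells were second at 8.41 ± 2.19 CPM. Leydig-like CPM was 318, 305 and 270 in control and 236, 255 and 333 in nicotine mice. Nicotine replicate 3 was the highest of all 6 mice and the other two nicotine mice the lowest (log2 difference -0.14, SE 0.17, edgeR adjusted p = 0.998).

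Igfbp3 encodes the main carrier of IGF-1 in blood, which is also made locally by connective tissue cells. Its gene lies at chr11:7206086-7213923 on the minus strand of GRCm38. Its promoter, from 250 bases before to 50 after the start (RefSeq, GRCm38.p6, chr11:7213874-7214173, minus strand), is shown beside that of Igfbp7 (chr5:77407996-77408295, minus strand). Igfbp7 was the member called in the whole-testis sums given below, where cell share and level per cell cannot be told apart. Capitals mark each GC box, GGGCGG on either strand, the motif of Sp1-type factors.
Igfbp3: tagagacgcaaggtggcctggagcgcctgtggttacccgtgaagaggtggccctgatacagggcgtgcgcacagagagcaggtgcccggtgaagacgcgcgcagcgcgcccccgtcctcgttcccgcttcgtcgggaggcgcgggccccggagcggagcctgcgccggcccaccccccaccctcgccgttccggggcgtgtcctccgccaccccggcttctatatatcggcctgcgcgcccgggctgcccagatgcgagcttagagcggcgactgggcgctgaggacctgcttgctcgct
Igfbp7: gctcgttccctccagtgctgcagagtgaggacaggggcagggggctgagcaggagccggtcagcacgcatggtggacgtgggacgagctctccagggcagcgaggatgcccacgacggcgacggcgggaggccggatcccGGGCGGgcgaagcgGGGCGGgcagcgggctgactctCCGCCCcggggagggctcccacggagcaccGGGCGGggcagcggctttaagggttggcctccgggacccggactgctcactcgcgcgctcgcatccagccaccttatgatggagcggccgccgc
The Igfbp7 window holds 4 such matches and the Igfbp3 window none, at a GC content of 73.3% and 71.7%. Of 32851 promoters of this length, 35.7% hold at least 1 GC box. Neither window holds TATAAA on either strand, which 13.6% of promoters do, and the Igfbp3 window holds 2 matches to CANNTG, which occurs in 72.3% of promoters.

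Igfbp3 was nearly all in stromal-like cells. Of 119 UMIs in all kept cells, 104 (87.4%) lay in stromal-like cells, in 35 of 558 cells. None was found in 382 Leydig-like, 4432 Sertoli-like or 175 macrophage-like cells, which allows at most 1.18, 0.630 and 6.87 CPM in these classes. The share of stromal-like cells with a UMI was 6.27%, and 5.08% after thinning.

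Stromal-like Igfbp3 was 107, 32.8 and 42.3 CPM in control and 113, 211 and 138 CPM in nicotine mice. All nicotine mice lay above all control mice, but control replicate 1 was only just below nicotine replicate 1. The group means were 60.6 ± 40.2 CPM and 154 ± 50.9 CPM (SD, n = 3 each), and the fitted log2 difference was 1.37 (SE 0.33). As this contrast chose the gene, it carries no test. Among the 3698 genes tested in these cells, 0% passed the adjusted threshold of 0.05, and in 13.7% the groups did not overlap. Leaving out control replicate 1 raised the log2 difference to 1.99. The 0.0252% of genes called in that fit was Igfbp3 alone, so nothing is read from the call. Leaving out nicotine replicate 2 lowered the log2 difference to 1.03.

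The counts behind these levels were small. Control mice had 24, 5 and 13 UMIs of Igfbp3 in 8, 2 and 7 stromal-like cells, and nicotine mice had 11, 34 and 17 UMIs in 4, 10 and 4 cells. The numbers of positive cells overlapped between the groups. Up to 11 UMIs came from 1 cell, in control replicate 1. Without the cell of each mouse that held the most, the levels were 58.5, 6.66 and 29.5 CPM in control and 52.4, 157 and 99.6 CPM in nicotine mice, and the groups then overlapped.

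**Figure D2:**
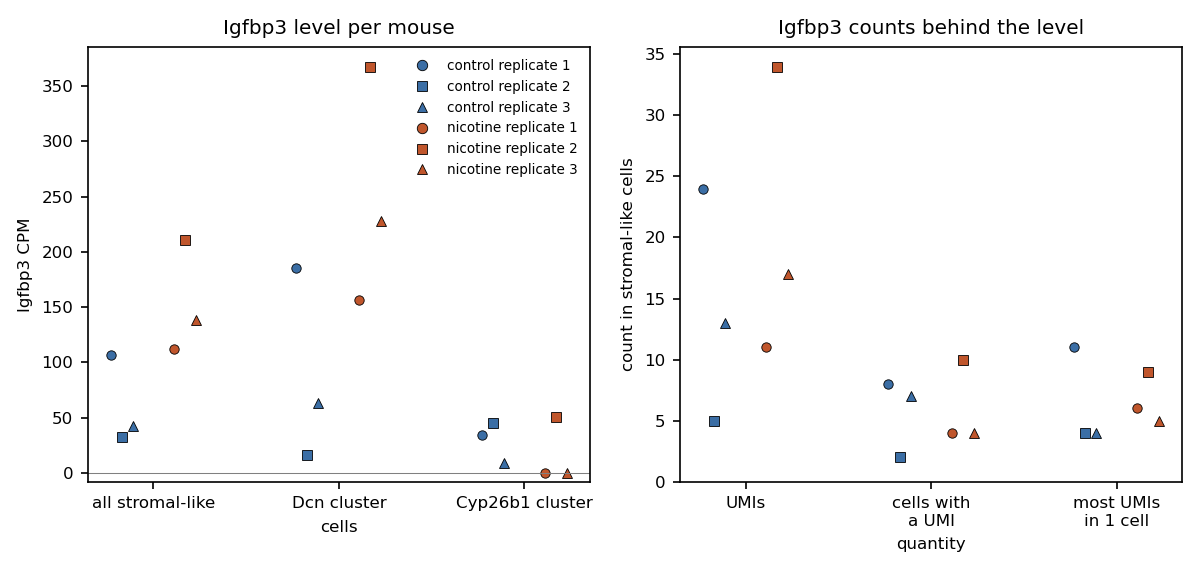
Igfbp3 in stromal-like cells, 1 point per mouse (blue control, orange nicotine; circle, square and triangle are replicates 1, 2 and 3). The left panel gives CPM in all stromal-like cells and in each of their clusters, where nicotine replicate 2 is the highest; the right panel gives the UMIs, positive cells and largest count in 1 cell, which run from 5 to 34, 2 to 10 and 4 to 11.

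Most Igfbp3 lay in the Dcn cluster, at 155 CPM against 27.1 CPM in the Cyp26b1 cluster, and the Dcn cluster was higher in 5 of 6 mice. In the Dcn cluster the control mice had 185, 15.8 and 63.1 CPM and the nicotine mice 157, 367 and 228 CPM. Control replicate 1 thus lay above nicotine replicate 1, and the groups overlapped. The log2 difference in this cluster was 1.40 (SE 0.35), again as a description. In the Cyp26b1 cluster 13 UMIs were counted over 6 mice, and nicotine replicates 1 and 3 had none. The Dcn cluster held 55, 42 and 82 of the 110, 90 and 141 stromal-like cells of the control mice and 44 cells in each nicotine mouse, of 62, 82 and 73.

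For myoid cells, a gate took somatic cells with at least 3 UMIs over a myoid marker list and more of these than of stromal markers. It held 71 cells, 35 of them in Leydig-like, 17 in Sertoli-like and 19 in stromal-like clusters, and 5 to 21 per mouse. These cells go against the label: Cyp17a1, a Leydig enzyme gene, stood at 5952 CPM in them and Acta2 at 5.49 CPM. The 19 cells in stromal-like clusters had Acta2 at 22.3 CPM and Tagln at 245 CPM, from 17 UMIs of contractile genes among 44842 UMIs. Only 1 of these 19 cells had at least 3 contractile UMIs. Rgs5, a pericyte marker, stood at 379 CPM in the 19 cells and Cdh5, an endothelial marker, at 335 CPM. No UMI of Igfbp3 was found in the 71 cells, where a count of 0 allows 21.3 to 155 CPM in a mouse. As no myoid cells were identified, Igfbp3 in such cells was not measured here.

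Igfbp4 encodes a binding protein that the protease PAPP-A cleaves, which frees the bound IGF. It was at 446 ± 47.8 CPM in stromal-like cells (SD, n = 6) and 196 ± 74.9 CPM in macrophage-like cells (n = 5), with stromal-like cells higher in 5 of 5 mice. Stromal-like CPM was 444, 519 and 478 in control and 440, 403 and 390 in nicotine mice. All nicotine values lay below all control values, with 444 and 440 CPM as the nearest pair. The groups did not overlap in 13.7% of the genes tested in these cells, either direction counted. The log2 difference of -0.23 (SE 0.21) did not pass the test (edgeR adjusted p = 0.825). Igfbp4 also reached 15.7 ± 7.73 CPM in low-UMI round spermatid-like cells, above Leydig-like cells (15.0 ± 10.8 CPM) in 4 of 6 mice, so these neighbours did not differ beyond their spread.

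Igfbp5, the gene of a binding protein of extracellular matrix, was close to absent, with 51 UMIs in all kept cells. Its stromal-like level of 20.4 ± 33.3 CPM rested on 18 UMIs in 3 cells, 13 of them in 1 cell of control replicate 2. Control mice had 0, 85.4 and 0 CPM and nicotine mice 0, 12.4 and 24.4 CPM. No direction can be read from these counts.

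Igfbp6, the gene of a binding protein selective for IGF-2, was at 1770 ± 142 CPM in stromal-like and 178 ± 30.6 CPM in Leydig-like cells (SD, n = 6), with the same order in 6 of 6 mice. Stromal-like cells held 73.1% of its UMIs, and 434 of 558 of them (77.8%) had at least 1. After thinning the share was 66.5%, beside 0.155% in Sertoli-like cells. Stromal-like CPM was 1737, 1773 and 1829 in control and 1514, 1933 and 1835 in nicotine mice. The nicotine mice spread to both sides of the control mice (log2 difference -0.01, SE 0.19, edgeR adjusted p = 0.990). Leydig-like cells had a log2 difference of 0.16 (SE 0.18, edgeR adjusted p = 0.998).

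Igfbp7, whose product binds IGFs weakly and is a component of vessel walls and matrix, was at 902 ± 156 CPM in stromal-like and 717 ± 58.4 CPM in Leydig-like cells (SD, n = 6). The stromal-like level was higher in 5 of 6 mice, and the SDs of these neighbours overlap. Leydig-like cells held 49.2% of its UMIs and stromal-like cells 25.7%. Its gene at chr5:77349240-77408041, minus strand, overlaps Polr2b on the other strand, which was at 36.5 CPM in Leydig-like and 31.9 CPM in stromal-like cells. Gm34648 overlaps it too and stood at 8.40 CPM in round spermatid-like and 4.82 CPM in late spermatocyte-like cells, where Igfbp7 itself averaged 1.77 and 2.00 CPM; its part in the germ cell values of Igfbp7 was not tested.

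Stromal-like Igfbp7 was 711, 979 and 944 CPM in control and 910, 1128 and 739 CPM in nicotine mice. Leydig-like Igfbp7 was 724, 806 and 640 CPM in control and 735, 734 and 665 CPM in nicotine mice. Neither class separated the groups. The log2 differences were 0.09 (SE 0.20, edgeR adjusted p = 0.947) and -0.04 (SE 0.14, edgeR adjusted p = 0.998), and in Sertoli-like cells 0.04 (SE 0.31, edgeR adjusted p = 0.988).

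**Figure D3:**
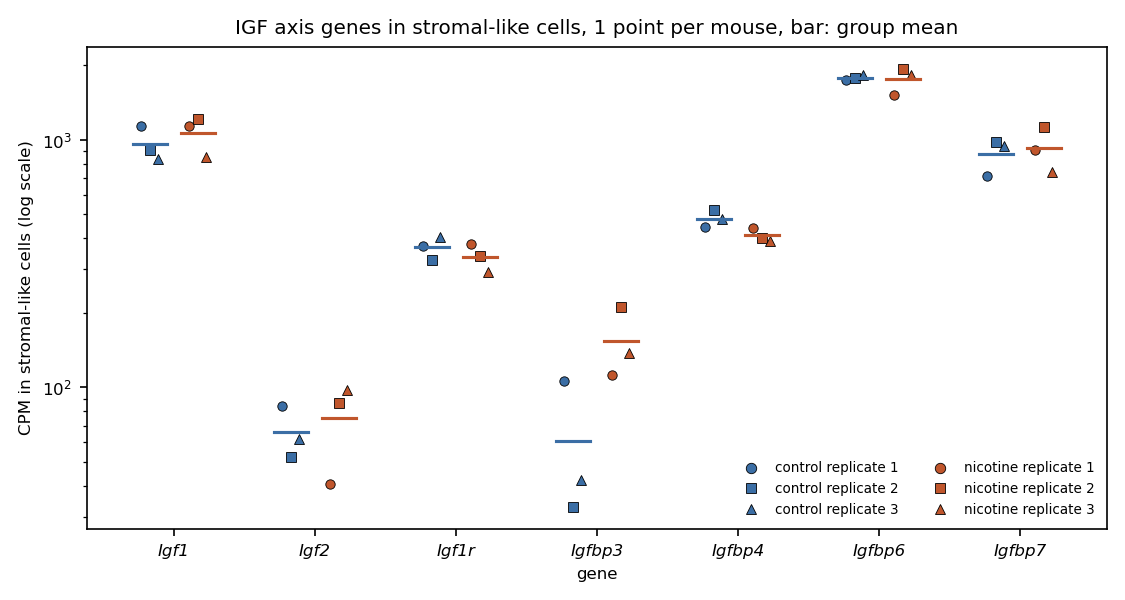
CPM (log scale) in stromal-like cells of the 7 IGF axis genes that passed the filter on low counts there, 1 point per mouse, with a bar at each group mean. Igfbp3 and Igfbp4 are the genes whose groups do not overlap, with nicotine mice above control mice for Igfbp3 and below for Igfbp4. Of all genes tested in these cells, 13.7% did not overlap, either direction counted, and the contrast of Igfbp3 chose that gene.

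Within the stromal-like class the genes divided between the clusters in the same way in most mice. Igf1 was at 1279 CPM in the Dcn cluster and 649 CPM in the Cyp26b1 cluster, Igf2 at 93.5 and 43.8 CPM, and Igfbp7 at 1175 and 564 CPM, each higher in the Dcn cluster in 6 of 6 mice. Igf1r went the other way in 6 of 6 mice, at 282 CPM in the Dcn cluster and 461 CPM in the Cyp26b1 cluster. Igfbp6 was at 1738 and 1852 CPM and was higher in the Dcn cluster in 2 of 6 mice. Immediate early genes such as Fos and Egr1 took 2.10% to 3.14% of UMIs in the Dcn cluster of a mouse and 0.125% to 0.223% in the Cyp26b1 cluster; their part in these differences was not tested. Between control and nicotine, Igf1 had a log2 difference of 0.58 in the Cyp26b1 cluster (SE 0.24, edgeR adjusted p = 0.397), where 0.0498% of genes were called, and -0.22 in the Dcn cluster (SE 0.20, edgeR adjusted p = 0.994), where 0% were. The difference between these values was not tested.

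Control and nicotine were fitted for every member that passed the filter in a class. These were 7 in stromal-like, 4 in Leydig-like and 1 in Sertoli-like cells, and 0 to 4 in the germ cell classes. The 7 include Igfbp3, whose stromal-like fit is a description and not a test. None was called in any of the 10 classes fitted by edgeR at an adjusted p of 0.05. Across these classes the share of all tested genes that was called ran from 0% in stromal-like, Leydig-like and round spermatid-like cells to 3.62% in late spermatocyte-like cells, with 0.165% in Sertoli-like, 0.669% in early spermatocyte-like, 0% in low-UMI early spermatocyte-like, 0.481% in low-UMI round spermatid-like, 0.0074% in elongating and 0.0272% in low-UMI elongating spermatid-like cells. At an unadjusted p under 0.05, edgeR had 1 member in each of stromal-like, early spermatocyte-like and round spermatid-like cells and 3 in late spermatocyte-like cells. Over all genes tested, 7.71%, 12.3%, 3.9% and 17.6% were below this value in these 4 classes. The one in stromal-like cells was Igfbp3, whose contrast chose it, so nothing is read from that count. DESeq2 also called none. The median log2 difference of the members that passed was 0.09 in stromal-like and -0.06 in Leydig-like cells, beside 0.02 and 0.00092 over all genes tested. The stromal-like median includes Igfbp3.

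**Figure D4:**
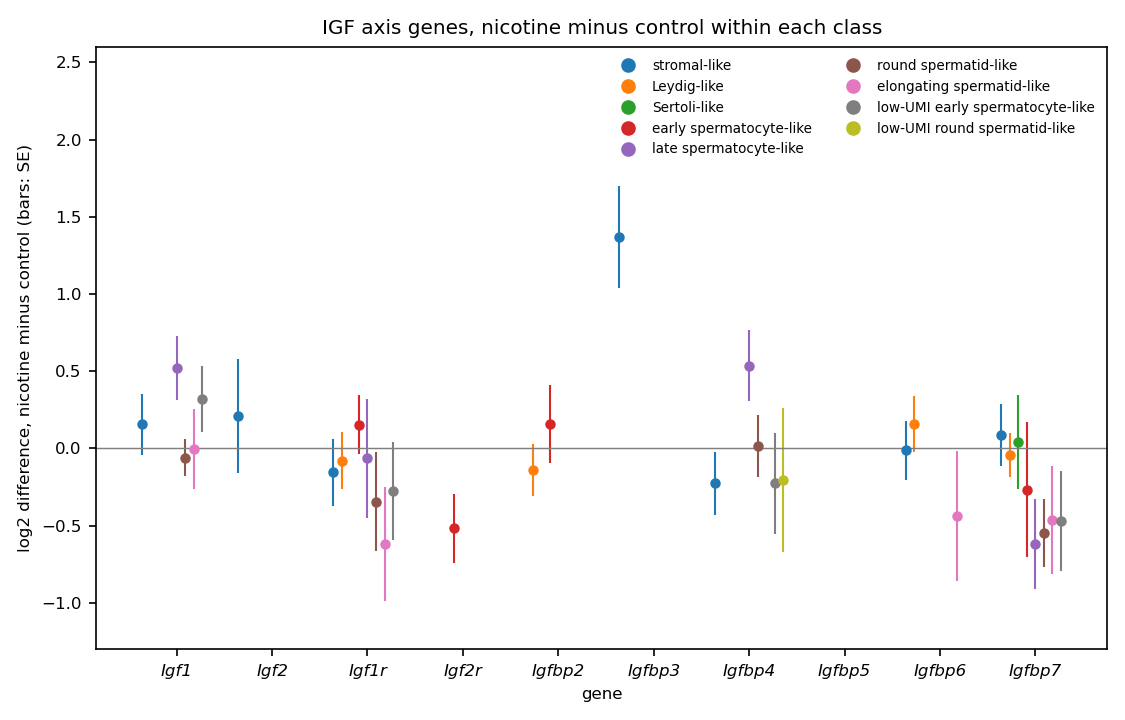
Log2 difference, nicotine minus control, of each IGF axis gene (x axis) in each class where it passed the filter on low counts (colour), with the standard error of the edgeR fit as the bar. Igfbp3 in stromal-like cells, at 1.37, is the highest point; the others lie between -0.62 and 0.54.

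In the late spermatocyte-like cells the fitted differences lay on both sides of 0, and none passed the test. Igfbp4 was 2.28, 3.40 and 3.41 CPM in control and 5.25, 3.39 and 4.56 CPM in nicotine mice, overlapping at nicotine replicate 2 (log2 difference 0.54, SE 0.23, edgeR adjusted p = 0.222). Igfbp7 was 2.93, 2.40 and 1.93 CPM in control and 1.23, 1.48 and 2.06 CPM in nicotine mice, overlapping at nicotine replicate 3 (log2 difference -0.62, SE 0.29, edgeR adjusted p = 0.273). Igfbp7 also had log2 differences of -0.55 in round spermatid-like (SE 0.22, edgeR adjusted p = 1.00), -0.46 in elongating spermatid-like (SE 0.35, edgeR adjusted p = 0.844) and -0.47 in low-UMI early spermatocyte-like cells (SE 0.32, edgeR adjusted p = 0.624). In early spermatocyte-like cells the log2 difference of Igfbp7 was -0.27 (SE 0.44, edgeR adjusted p = 0.875). In round, elongating and low-UMI early cells Insl3, the Leydig cell hormone gene, had log2 differences of -1.11, -0.96 and -1.10, with edgeR adjusted p values of 1.00, 0.677 and 0.293, and in late spermatocyte-like cells one of 0.56 (edgeR adjusted p = 0.610). The part of Leydig cell RNA outside Leydig cells in the germ cell values of Igfbp7 was not tested.

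None of the remaining germ cell fits was called. Igf1 had 0.32 in low-UMI early spermatocyte-like (SE 0.21, edgeR adjusted p = 0.608), -0.06 in round (SE 0.12, edgeR adjusted p = 1.00) and -0.01 in elongating spermatid-like cells (SE 0.26, edgeR adjusted p = 0.997) on the log2 scale. Igf1r had -0.62 in elongating (SE 0.37, edgeR adjusted p = 0.828) and -0.34 in round spermatid-like (SE 0.32, edgeR adjusted p = 1.00), -0.28 in low-UMI early (SE 0.32, edgeR adjusted p = 0.797) and -0.06 in late spermatocyte-like cells (SE 0.38, edgeR adjusted p = 0.959). Igfbp4 had -0.23 in low-UMI early spermatocyte-like (SE 0.33, edgeR adjusted p = 0.839), -0.20 in low-UMI round (SE 0.46, edgeR adjusted p = 0.897) and 0.02 in round spermatid-like cells (SE 0.20, edgeR adjusted p = 1.00), and Igfbp6 had -0.44 in elongating spermatid-like cells (SE 0.42, edgeR adjusted p = 0.867). In 7 of these 11 fits the standard error exceeded the difference.

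When the UMIs of all kept cells of a mouse were summed, 9 members passed the filter, and all but Igfbp3 were lower in nicotine mice, with a median log2 difference of -0.46 beside 0.0024 over all genes. Igfbp7 was the member that passed the test: it was 9.39, 12.2 and 10.7 CPM in control and 6.87, 7.68 and 5.98 CPM in nicotine mice. All nicotine mice lay below all control mice, with a log2 difference of -0.64 (SE 0.10, edgeR adjusted p = 0.0387). Of the 21998 genes tested in these sums, 0.264% were called. In such sums, fewer cells of a type and less RNA per cell cannot be told apart.

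Besides Igfbp7, the whole-testis values of Igf2, Igf1r, Igfbp2 and Igfbp6 did not overlap between the groups, which makes 5 of the 10 members; 10.7% of all genes tested did not overlap. Igf1r was 4.97, 5.33 and 7.24 CPM in control and 4.34, 4.27 and 4.04 CPM in nicotine mice (log2 difference -0.46, SE 0.13, edgeR adjusted p = 0.250). Igfbp6 was 6.67, 6.22 and 9.42 CPM in control and 3.57, 5.54 and 5.21 CPM in nicotine mice (log2 difference -0.62, SE 0.20, edgeR adjusted p = 0.411). Igfbp2 had a log2 difference of -0.57 (SE 0.17, edgeR adjusted p = 0.251) and Igf2 one of -0.60 (SE 0.24, edgeR adjusted p = 0.570). Igfbp3 was 0.349, 0.0862 and 0.183 CPM in control and 0.240, 0.541 and 0.307 CPM in nicotine mice, and the groups overlapped.

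The stromal-like and Leydig-like classes made up smaller shares of kept cells in the nicotine mice. This is a description, as an exact permutation test of 3 mice against 3 cannot go below 0.10. The stromal-like share was 1.02%, 0.914% and 1.28% for control and 0.626%, 0.830% and 0.696% for nicotine mice. The Leydig-like share averaged 0.768% ± 0.181 for control against 0.466% ± 0.0411 for nicotine mice (SD, n = 3 each), with the highest nicotine mouse at 0.494% and the lowest control mouse at 0.639%. Smaller shares were not particular to these classes. The Sertoli-like share averaged 8.27% for control against 5.95% for nicotine mice, and the macrophage-like share 0.379% against 0.183%. In both, the highest nicotine mouse (6.21% and 0.267%) lay below the lowest control mouse (7.10% and 0.324%). Mean shares were higher in nicotine mice for early and low-UMI early spermatocyte-like and for elongating spermatid-like cells. Stromal-like and Leydig-like cells together held 70.9% to 79.4% of the Igfbp7 UMIs of a mouse. Outside them, Igfbp7 was 2.54, 3.07 and 2.22 CPM in control and 2.01, 1.91 and 1.74 CPM in nicotine mice, with a log2 difference of -0.47 (SE 0.14) that was no longer called (edgeR adjusted p = 0.804). Igfbp6 outside them was 0.692, 0.756 and 0.964 CPM in control and 0.370, 0.324 and 0.569 CPM in nicotine mice (log2 difference -0.94, SE 0.25, edgeR adjusted p = 0.642). Igf2 outside them averaged 0.396 ± 0.0302 CPM in control and 0.265 ± 0.0523 CPM in nicotine mice (SD, n = 3 each). Igfbp7, Igfbp6 and Igf2 did not overlap between the groups there and the other 7 members did; 8.05% of all genes tested in these sums did not overlap.

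The call of Igfbp7 in the whole testis rested on most of the mice. With 1 mouse left out it was lost in 4 of 6 fits, at edgeR adjusted p values of 0.0891 (control 2), 0.138 (control 3), 0.244 (nicotine 1) and 0.0768 (nicotine 3), while the log2 difference stayed between -0.57 and -0.65 in these fits. It was also lost where library size alone was used for scaling (0.0621).

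**Figure D5:**
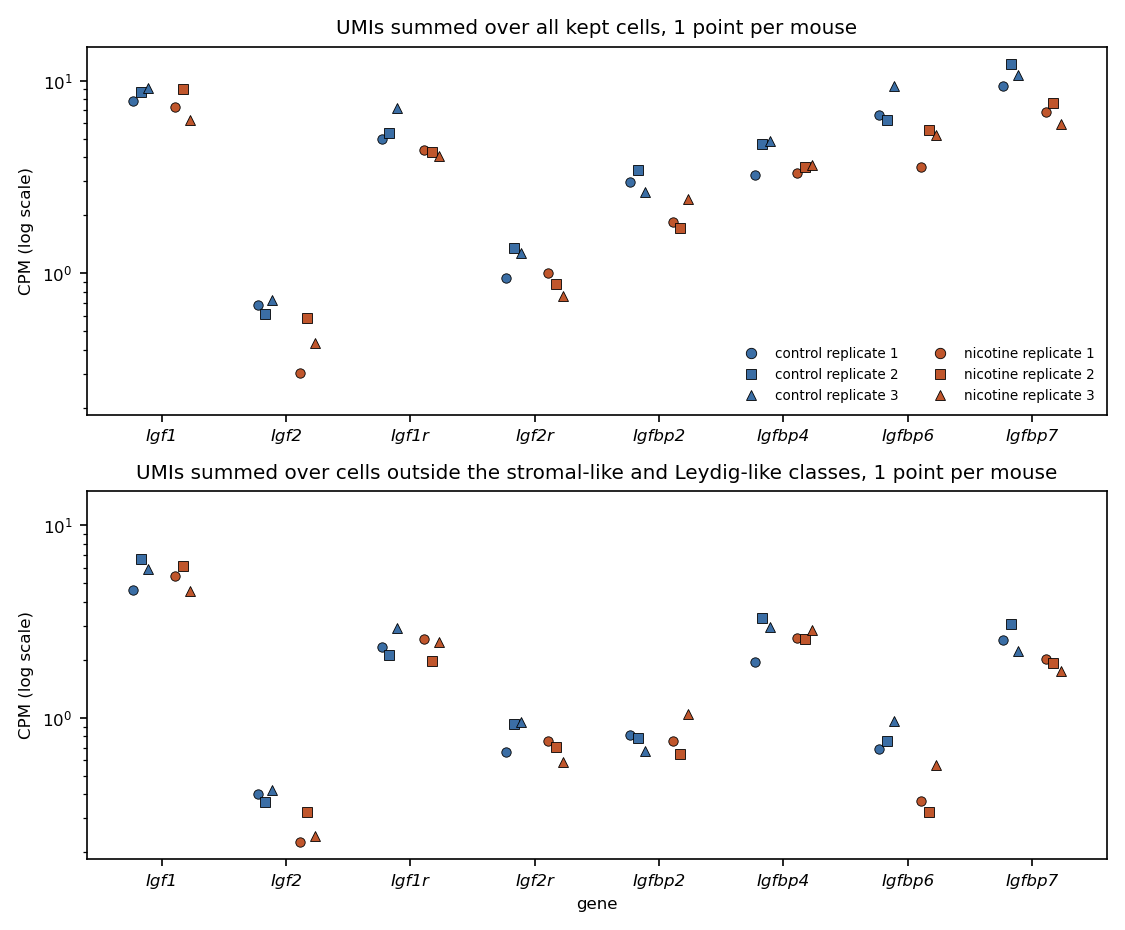
CPM (log scale) of 8 IGF axis genes, 1 point per mouse, summed over all kept cells (top) and over cells outside the stromal-like and Leydig-like classes (bottom). Igfbp7 runs from 9.39 to 12.2 in control and 5.98 to 7.68 in nicotine mice in the top panel, and lies between 1.74 and 3.07 in the bottom panel.

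Of 75 further genes of the pathway, listed by role, 22 passed the filter in stromal-like, 37 in Leydig-like and 23 in Sertoli-like cells, and none of these was called. Their median log2 differences were -0.08, -0.09 and -0.08, beside 0.02, 0.00092 and 0.01 over all genes tested. In stromal-like cells the smallest p values belonged to Pik3ca, a catalytic subunit of PI3K (log2 difference -0.58, SE 0.34, edgeR adjusted p = 0.709), and Ptpn1, a phosphatase acting on insulin-type receptors (-0.45, SE 0.33, edgeR adjusted p = 0.768). In Leydig-like cells they belonged to Mtor (-0.65, SE 0.27, edgeR adjusted p = 0.998) and the insulin-like peptide gene Insl6 (0.60, SE 0.27, edgeR adjusted p = 0.998). In Sertoli-like cells they belonged to Insl6 (0.18, SE 0.11, edgeR adjusted p = 0.773) and the transcription factor gene Foxo3 (-0.54, SE 0.36, edgeR adjusted p = 0.796).

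Over all 10 classes 1 pathway gene was called, Rheb, whose GTPase activates the mTOR complex downstream of AKT. In late spermatocyte-like cells, where 3.62% of genes were called, Rheb was 29.3, 39.5 and 31.8 CPM in control and 22.1, 26.5 and 23.5 CPM in nicotine mice. All nicotine mice lay below all control mice, and Rheb fell by 0.45 on the log2 scale (SE 0.12, edgeR adjusted p = 0.0402). The call was lost without control replicate 2 or any of the 3 nicotine mice, with library size alone for scaling, and with doublets left in. In 22.3% of the genes tested in these cells the groups did not overlap. In low-UMI round spermatid-like cells Rheb was 18.8, 24.3 and 15.7 CPM in control and 37.2, 53.3 and 27.1 CPM in nicotine mice, on 10 to 27 UMIs a mouse (log2 difference 1.01, SE 0.34, edgeR adjusted p = 0.167). In elongating spermatid-like cells it was 6.88, 7.02 and 6.06 CPM in control and 8.18, 8.13 and 7.34 CPM in nicotine mice (log2 difference 0.16, SE 0.13, edgeR adjusted p = 0.849). In both classes all nicotine mice lay above all control mice, as was so in either direction for 16.5% and 15.8% of the genes tested there, and neither difference passed the test.

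In whole-testis sums 68 of the 75 pathway genes passed the filter, and Insl3 was the 1 called. It was 36.5, 45.5 and 37.1 CPM in control and 21.0, 18.6 and 23.4 CPM in nicotine mice and fell by 0.90 on the log2 scale (SE 0.11, edgeR adjusted p = 0.0203). Within Leydig-like cells Insl3 was 4999, 4675 and 4692 CPM in control and 4250, 3907 and 5107 CPM in nicotine mice, which overlapped (log2 difference -0.13, SE 0.14, edgeR adjusted p = 0.998). Of the 12 proteases of binding proteins and their inhibitors that passed in these sums, 10 had a log2 difference below 0. The median over these 12 was -0.41, beside 0.0024 over all genes tested, and none was called. Such sums also change with the share of each cell type in a mouse.

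Genes with the most similar pattern were found by Pearson's r of log2(CPM + 1) over 65 sums of 11 classes and their mice, among 14014 other genes of at least 20 CPM in a class. The sums of a mouse share a library and those of a class share cell type and depth, so r is a description. Igfbp3 was nearest to Cxcl14 (r = 0.993), Tgfb2 (0.986), Des (0.986), Mmp2 (0.985) and Entpd2 (0.985). Igfbp6 was nearest to C1s1 (0.982), Ppic (0.967), Meg3 (0.964), Cavin1 (0.964) and Osr1 (0.963). The genes near Igf1 included A4galt (0.906), Pltp (0.906), Myof (0.904) and Lpl (0.903), and Igf2 was nearest to Adamtsl4 (0.947), Col6a1 (0.936), Cavin3 (0.933), Col3a1 (0.927) and Phlda3 (0.922).

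The receptor Igf1r was nearest to Camk2d (r = 0.965), Txnip (0.956), Arid1b (0.956), Jun (0.955) and Itgb1 (0.951), and the genes near Igf2r included Cnn3 (0.904), Plod2 (0.901), Lrig1 (0.901) and Nr2f2 (0.900). Igfbp2 was nearest to Snhg11 (0.903), Adgrg7 (0.902), the testosterone enzyme gene Hsd17b3 (0.895), Gpha2 (0.895) and Klk1b22 (0.892). Igfbp4 was nearest to Tgfbr2 (0.911), Itga9 (0.908), Mapre2 (0.907) and Dlc1 (0.902), and Igfbp7 to Mmd2 (0.958), A830008E24Rik (0.953), Snhg18 (0.951), Sod3 (0.947) and Acsbg1 (0.947). For Igfbp5, which rests on few UMIs, the nearest were Slpi (0.695), Cys1 (0.692), Mmp2 (0.685), Ifitm1 (0.677) and Chst3 (0.673).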

How the data were processed

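Testes of 3 control and 3 nicotine mice were measured by 10x 3' single-cell RNA sequencing. The deposited files hold UMI counts, whole numbers for each gene in each cell. The authors made them with Cell Ranger 7.2.0 on GRCm38, per the submitters' processing notes, and no source used here says whether intronic reads were counted. The labels name the replicates as separate mice.

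Cells with at least 500 UMIs, 250 genes and under 20% mitochondrial UMIs were kept. The cells with the highest Scrublet scores, 0.8% per 1000 cells, were removed as doublets, 8.62% to 9.76% of a library, since the caller's default cut marked between 0 and 140 cells. Clustering (scanpy 1.11.5, Leiden, resolution 1.0) gave 32 clusters; 20.2% of kept cells stayed unnamed and entered only the whole-testis sums. For each class, counts were added up by mouse and fitted over all genes with edgeR 4.0.16 (TMM scaling, filterByExpr, robust quasi-likelihood, nicotine minus control), with Benjamini-Hochberg adjustment over the genes of that class. Classes with under 10 cells in a mouse were not fitted. The edgeR fit, and no other step, was tested on simulated counts before it was applied. Limits from a count of 0 use 3 counts and cover counting error only. Alternatives were DESeq2 1.42.0, other scalings, filters and clusterings, a replicate block, and leaving out each mouse. Gene positions come from GENCODE vM21.

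The members, the pathway list, the markers and the rules were chosen with earlier results of these data known. The text names all members in the classes where they passed the filter, pathway genes past the threshold or with the 2 smallest p in a somatic class, and the 5 genes most like each member, some of which are not reported here. The fits within stromal-like clusters, outside the stromal-like and Leydig-like classes and in macrophage-like cells, and the levels without the top cell, were added after seeing the data.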

Additional observations from a re-analysis of the deposited data

How the results depend on the processing

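The 3 mice a group limit the precision, and small UMI numbers limit Igfbp3, Igfbp5 and Igf2 above all. No cluster stood for myoid cells, so the DESeq2, scaling and block alternatives could not be fitted there; Igfbp3 had 0 UMIs in the myoid gate under the others. Igfbp3 in stromal-like cells kept its direction in every fit run, at log2 1.03 to 1.99 with 1 mouse left out. Without the top cell of each mouse, the log2 ratio of the group mean CPM, which is not a fitted value, was 1.71. In the Cyp26b1 cluster alone Igfbp3 did not pass the filter and was not fitted. Its CPM there was 34.2, 44.9 and 8.54 in control and 0, 50.2 and 0 in nicotine mice. Without control replicate 1 the members called over classes came to 1, and to 0 without any other mouse; that 1 was Igfbp3 in stromal-like cells, the contrast that chose it, so nothing is read from it. Pathway genes called came to 0 with library size alone, 3 with no filter (Rheb, and Insl3 in 2 classes), 0 with doublets left in, and 0 to 3 with 1 mouse left out, Bad and Rheb among the 3 without control replicate 3. Members called in whole-testis sums came to 0 with library size alone, 0 outside the stromal-like and Leydig-like classes, and 0 to 1 with 1 mouse left out. With the replicate number as a block, 0 members and 1 pathway gene were called over classes, 1 member in whole-testis sums, and Igfbp3 had log2 1.35; no call changed. Same-numbered samples of the groups shared deviations at correlations of -0.05, 0.37 and 0.03 in whole-testis sums. In Sertoli-like sums these were 0.03, 0.16 and 0.11, and in stromal-like and Leydig-like sums they ran from -0.11 to 0.11. Whether same-numbered mice shared handling was not tested. The labels do not say that the numbers pair the mice, so they entered only as the block.

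Reversals were of small log2 differences that were called under no setting; the cause was not tested. Igf1 in elongating spermatid-like cells became 0.0017 with DESeq2, 0.0741 with library size alone, 0.0003 with no filter and 0.0158 with the block. DESeq2 gave 0.0063 for Igfbp6 in stromal-like cells. With doublets left in, Igfbp4 in round spermatid-like cells was -0.0347, Igfbp6 in stromal-like 0.0857, Igfbp7 in Leydig-like 0.0296 and Igfbp7 in early spermatocyte-like cells 0.0144. Igfbp2 was 0.096 outside the stromal-like and Leydig-like classes. With 1 mouse left out, the ranges that crossed 0 were as follows. In stromal-like cells Igfbp6 ran from -0.0801 to 0.077 and Igfbp7 from -0.087 to 0.2336. In Leydig-like cells Igf1r ran from -0.2744 to 0.0963, Igfbp6 from -0.0418 to 0.2809 and Igfbp7 from -0.1327 to 0.0285. Igfbp7 ran from -0.2586 to 0.306 in Sertoli-like cells and from -0.5095 to 0.2511 in early spermatocyte-like cells, where Igfbp2 ran from -0.1465 to 0.342. Igf1 ran from -0.1202 to 0.0976 in elongating and from -0.1084 to 0.0261 in round spermatid-like cells, and Igf1r from -0.3579 to 0.3041 in late spermatocyte-like cells. Igfbp4 ran from -0.7339 to 0.013 in low-UMI early spermatocyte-like, from -0.6025 to 0.1583 in low-UMI round and from -0.1846 to 0.2264 in round spermatid-like cells. Of the other values, 272 under other settings and 216 with 1 mouse left out kept their direction and their side of the threshold, and the 2 and 4 that lost the call are those of Igfbp7 in the whole testis.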
